A study of Bos taurus and Sus scrofa with 6 samples.

Results

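UCHL1, ubiquitin carboxyl-terminal hydrolase L1, is also known as PGP9.5 and is a common protein marker of spermatogonia in livestock testes. It was taken by its gene symbol, with earlier results of these data already known. It is 1 of 19994 genes in the cattle table (ENSBTAG00000005078) and 1 of 22694 in the pig table (ENSSSCG00000022945). In the RefSeq annotation of Sscrofa11.1 the pig gene lies on the plus strand of chromosome 8, from 32353766 to 32367288, with 1 transcript, 9 exons and 672 coding bases for a protein of 223 residues. No annotated gene overlaps it on either strand, and the nearest are APBB2, 51528 bases before it on the minus strand, and LOC110262005, 43082 bases after it on the plus strand. Cattle coordinates are not used here.

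Dissociated testis cells came from 3 Holstein calves at an age of 4.5 months and 3 pigs of mixed breed at an age of 3 months, and 8000 cells of each animal were loaded for single-cell RNA-sequencing, which gave 1 library per animal. All 6 animals were prepubertal and untreated, and the purpose of the study was to find gene expression in germ cells that mammals share. RNA molecules were counted by unique molecular identifiers (UMIs) under the barcode of their cell, and levels are given as UMIs of UCHL1 per 1000000 UMIs of all genes (CPM), summed over the cells of a type in 1 animal.

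Ubiquitin is a small protein that is attached to other proteins in chains that mark them for the proteasome or change what they do, and deubiquitinases remove it again. UCHL1 belongs to the UCH family with UCHL3, UCHL5 and BAP1, cleaves small adducts from ubiquitin and binds free ubiquitin. It is known for its abundance in neurons and in the germline, where spermatogonia stain strongly and staining falls as germ cells differentiate.

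After cell calling and removal of doublets, 17482 cattle cells and 9206 pig cells were kept. In cattle 2, 8751 barcodes were called and 8138 kept, more than the 8000 cells loaded. Some barcodes kept as cells of cattle 2 may thus not be cells, which was not tested. The median depth ran from 789 to 4461 UMIs per cell in the cattle libraries and from 890 to 5870 in the pig libraries, so that counting error was largest in cattle 1 and pig 1. Cells were clustered without UCHL1, the other genes of the ubiquitin system and the genes of the germ cell stages, and clusters were named from marker lists that hold none of them, so that no name rests on UCHL1. Germ-like clusters, named from genes such as DDX4, DAZL and MAEL, numbered 83, 219 and 218 cells over cattle 1, 2 and 3, whereas pig 1, 2 and 3 had 646, 219 and 699. All 9 germ markers of the cattle table had UMIs in the germ-like cells of each of the 3 cattle. Of the 8 in the pig table, DND1 alone was at 0, in pig 1 and pig 2. Pairs of libraries shared 9 to 61 cell barcodes, beside 9.59 to 65.1 for random draws from the barcode list. The animal numbers are labels only, and 250 cattle cells and 818 pig cells were left without a name.

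UCHL1 was far higher in germ-like cells than in the rest of the testis in both species. In cattle the germ-like cells stood at 1586, 884 and 1052 CPM (mean 1174 ± 367, SD, n = 3) and all other cells at 56.7, 47.8 and 64.0 CPM (56.2 ± 8.15). In pig the germ-like cells stood at 588, 574 and 416 CPM (526 ± 95.7, SD, n = 3) and all other cells at 23.8, 33.9 and 11.9 CPM (23.2 ± 11). The groups did not overlap in either species, and within an animal the germ-like level was 16.4 to 27.9 times that of the other cells in cattle and 16.9 to 34.9 times in pig. Against the named somatic cells alone it was 16.3 to 28.3 times in cattle and 23.4, 73.4 and 34.5 times in pig 1, 2 and 3, since an unnamed cluster held 419 UCHL1 UMIs of the other cells of pig 2. The cattle germ-like levels also all lay above the pig ones. The pig levels pool germ-like clusters that ran from 8.01 to 791 CPM, whereas the cattle germ-like cells formed 1 cluster. Whether the order depends on the makeup of the germ-like cells was not tested. Germ-like cells gave 66.7% of the UCHL1 UMIs of the kept cattle cells while holding 10.1% of all their UMIs, and 92.0% against 38.6% in pig.

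In edgeR's quasi-likelihood test on the sums per animal, UCHL1 was higher in germ-like cells by 3.24 on the log2 scale in cattle (SE 0.28, Benjamini-Hochberg adjusted p = 2.69e-05) and by 4.16 in pig (SE 0.41, adjusted p = 0.000445). It was 1 of the 23.1% of 14200 genes tested that were called higher in cattle and of the 17.2% of 15217 in pig. Over 13 alternatives the cattle difference stayed between 3.05 and 4.38 and was called in each. In pig it was called in 11 of 13. Where each marker was compared with all other cells instead of with the median cluster, only 658 pig cells were named germ-like, the remaining cells of pig 1 stood at 288 CPM, and the difference was 1.62 (adjusted p = 0.132). With germ-like cells taken as those with UMIs of at least 2 germ markers it was 1.77 (adjusted p = 0.0658).

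The difference between germ-like and other cells was larger in pig than in cattle by 1.14 on the log2 scale (SE 0.47), which did not pass the test of the interaction (edgeR, adjusted p = 0.114). With the animal as a replicate block it was 1.24 and passed (adjusted p = 0.00467), and so did the comparison with unnamed cells left out, at 1.84 (adjusted p = 0.0256). The direction turned, without passing, where each marker was compared with all other cells (−1.49, adjusted p = 0.235) and where germ-like cells were taken by UMIs of 2 germ markers (−1.17, adjusted p = 0.257). Scaled by library size alone, without TMM, it was 0.24 (adjusted p = 0.789). Of 12769 symbols tested in both species, 9.09% were called higher and 6.39% lower in this interaction.

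**Figure D1:**
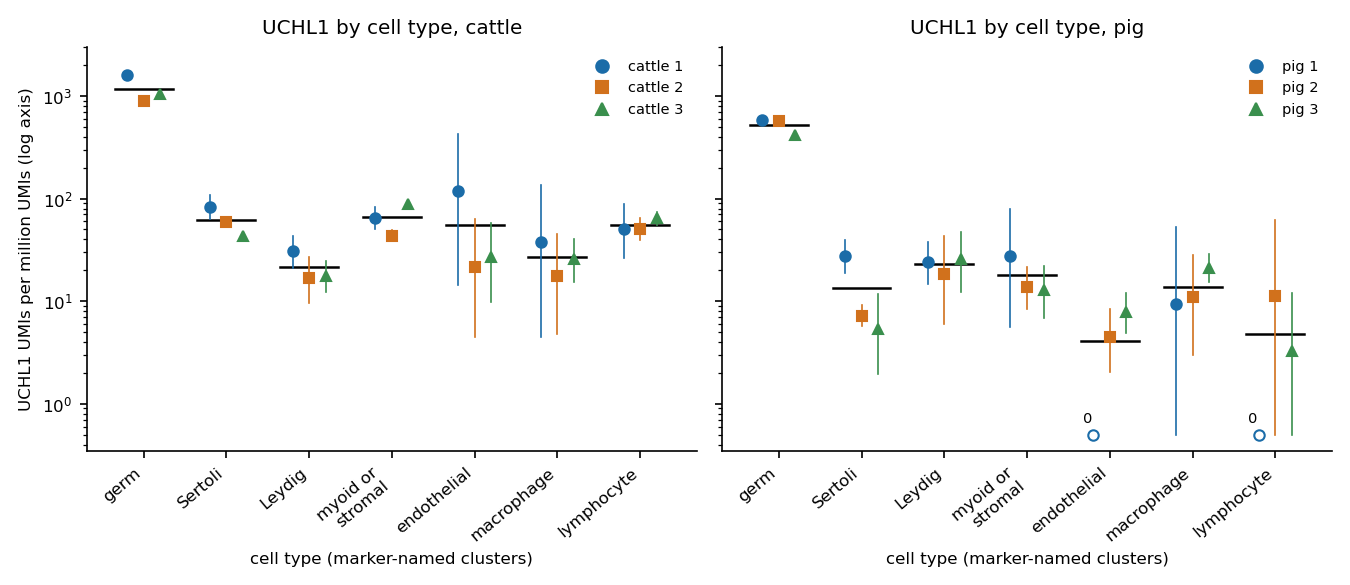
UCHL1 level in CPM on a log axis for each named cell type, cattle on the left and pig on the right, with 1 point per animal, bars for the exact Poisson 95% interval of its counts and a black line for the mean of 3 animals. Open circles near the foot of the pig panel are levels of 0, and the germ-like cells sit at 884 to 1586 CPM in cattle and 416 to 588 CPM in pig, above each somatic type.

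Nearly all cattle germ-like cells held a UCHL1 UMI, whereas many pig germ-like cells held none. Of the cattle germ-like cells 5 of 83, 13 of 219 and 0 of 218 had no UCHL1 UMI, and the median cell had 4, 5 and 16 UMIs. Of the pig germ-like cells 256 of 646, 27 of 219 and 232 of 699 had none, with medians of 1, 5 and 2 UMIs and single cells of up to 14, 66 and 100 UMIs. Pig 3 thus held the cell with the most UCHL1 UMIs and also more than 200 germ-like cells with none, at a median depth of 14796 UMIs per cell. In cattle 3, at 16908 UMIs per cell, no germ-like cell was without a UCHL1 UMI, which allows a share of up to 1.68% by the exact 95% binomial interval. This is a limit on cells without a UMI and not on cells that do not express the gene, since the named somatic cells of cattle 3 also held UCHL1 UMIs, at 64.6 CPM.

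Since depth sets how often a UMI is seen, each cell was also thinned to 500 UMIs. Of the cattle germ-like cells 47.0%, 36.5% and 38.5% then had a UCHL1 UMI, and of the pig ones 22.9%, 20.1% and 12.5%, against 94.0%, 94.1% and 100% and 60.4%, 87.7% and 66.8% before thinning. The cattle shares lay above the pig shares at equal depth, where the pig shares again pool clusters that differ in UCHL1. Macrophages were taken as a type that should lack the gene, and 1.40% ± 0.36 (SD, n = 3) of cattle macrophage-like cells had a UMI after thinning, against 0.44% ± 0.52 in pig. Their median depths before thinning were 629, 1197 and 3769 UMIs in cattle and 878, 3407 and 5375 in pig. Among the cattle types the thinned share was 3.01% ± 1.18 in myoid or stromal-like, 2.75% ± 0.56 in Sertoli-like and 2.67% ± 0.56 in lymphocyte-like cells, and 1.12% ± 0.61 in Leydig-like cells. In the pig the corresponding shares were 0.69% ± 0.22, 0.75% ± 0.47, 0% and 0.37% ± 0.65. The cattle Leydig-like share had a mean under the macrophage-like one, but the latter rests on 1, 2 and 2 cells with a UMI. The pig lymphocyte-like share is that of 0 of 19, 22 and 106 cells. These counts are too few to order the types. The pig Leydig-like share rests on 10, 0 and 0 cells with a UMI and the macrophage-like one on 0, 1 and 1, too few to order them, and in CPM the pig Leydig-like cells lay above the macrophage-like cells in 3 of 3 animals.

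**Figure D2:**
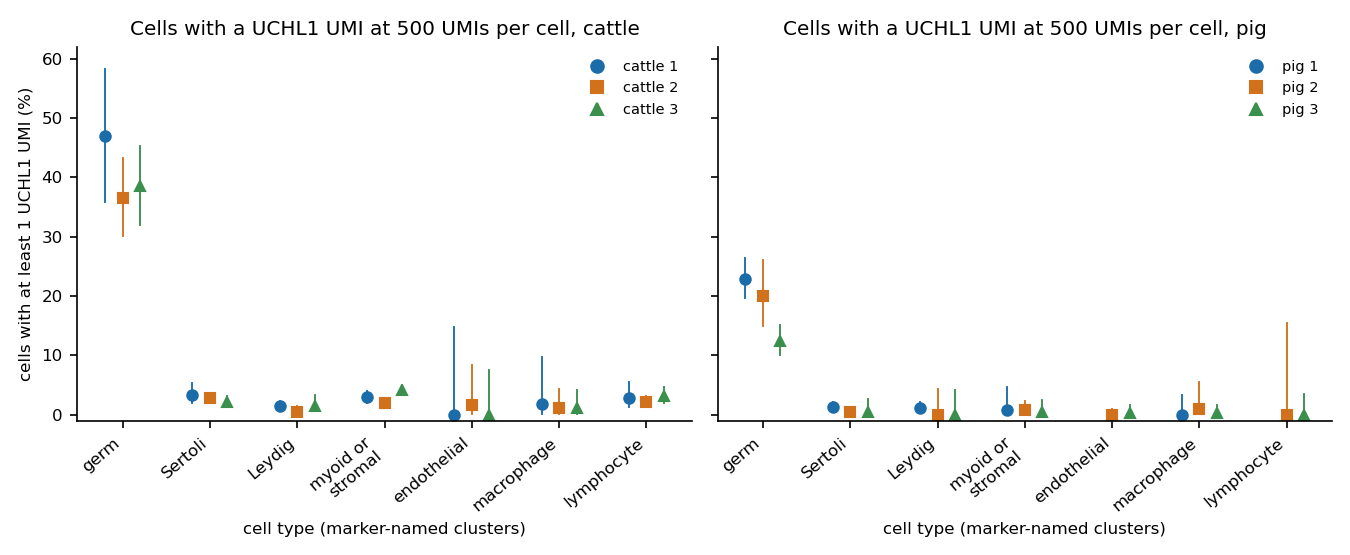
Share of cells with at least 1 UCHL1 UMI after each cell was thinned to 500 UMIs, in percent, by cell type, cattle on the left and pig on the right, with 1 point per animal and bars for the exact binomial 95% interval. Germ-like cells lie between 36.5% and 47.0% in cattle and between 12.5% and 22.9% in pig, far above the somatic types, and types with few cells in an animal are not drawn.

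Outside the germ-like cells, cattle UCHL1 was spread over all named types at a low level. From the highest mean to the lowest, the cattle types were myoid or stromal-like cells at 65.3, 43.5 and 89.3 CPM, Sertoli-like cells, the nurse cells of the tubules, at 83.3, 59.5 and 43.2 CPM, endothelial-like cells at 118, 21.7 and 26.7 CPM, lymphocyte-like cells at 51.1, 51.0 and 64.1 CPM, macrophage-like cells at 37.3, 17.7 and 25.6 CPM and Leydig-like cells, the source of androgens, at 30.7, 16.7 and 17.7 CPM. The endothelial values rest on 2, 3 and 6 UMIs. Of the neighbours in this order, the germ-like and myoid or stromal-like levels did not overlap, nor did the lymphocyte-like and macrophage-like levels. For both pairs a two-sided exact permutation test gave p = 0.1, the smallest that 3 against 3 levels allow. The test took the levels as independent, although both types of a pair come from the same 3 animals. The other neighbours overlapped, with exact permutation p from 0.6 to 1.

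Against the mean of the other somatic types, in 1 edgeR fit over the cattle types, UCHL1 was higher in lymphocyte-like cells by 0.96 on the log2 scale (adjusted p = 0.0119), in myoid or stromal-like cells by 0.89 (adjusted p = 0.0133) and in Sertoli-like cells by 0.83 (adjusted p = 0.0176). Among the 14161 genes of this fit, 10.8%, 15.4% and 18.7% were called higher in these types. These calls changed with the animals and settings used. Without cattle 2 the values were 0.79, 0.87 and 0.65 (edgeR, adjusted p = 0.264, 0.184 and 0.297), and without cattle 3 the lymphocyte-like and myoid or stromal-like values were 0.73 and 0.49 (adjusted p = 0.391 and 0.590). Scaling by library size alone also ended the lymphocyte-like call, at 0.62 (adjusted p = 0.140). The myoid or stromal-like and Sertoli-like calls were lost with all 3 animals kept too, with DESeq2 (0.69 for both), at a minimum of 500 UMIs (0.60 and 0.64) and with doublets kept (0.62 and 0.59), and kept in 6 of 11 alternatives each.

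Leydig-like cells lay below the mean of the other somatic types in 3 of 3 cattle, with a log2 difference of −0.70 in the fit (edgeR, adjusted p = 0.129), and macrophage-like cells did so too (−1.0, adjusted p = 0.0979). With the animal as a replicate block both passed, at −0.79 (adjusted p = 0.00914) and −0.98 (adjusted p = 0.0302), beside 4.52% and 4.22% of genes called lower without the block. The Leydig-like value also passed without cattle 1, at −1.08 (adjusted p = 0.0158). The endothelial-like value was −0.98 (adjusted p = 0.261).

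The myoid or stromal-like cells of cattle were not uniform in UCHL1. The contractile genes ACTA2 and TAGLN were among the leading genes of more than 1 cluster. One of these, most of whose cells came from cattle 3, stood at 120 CPM, with an exact Poisson 95% interval of 113 to 127. A pair of stromal clusters, from cattle 3 and from cattle 2, stood at 25.9 (21.3 to 31.2) and 18.4 CPM (12.2 to 26.6). The remaining large clusters, from cattle 1 and cattle 2, stood at 67.7 (52.1 to 86.5) and 51.3 CPM (44.8 to 58.4). They too had ACTA2 and TAGLN among their leading genes, so the level of 120 CPM was not shared by all contractile clusters. Clusters also lay apart within 1 library. Within cattle 3 its large contractile cluster stood at 120 CPM and the stromal one at 25.9. Within cattle 2 its large contractile cluster stood at 52.0 CPM (45.4 to 59.2) and the stromal one at 18.6 (12.4 to 26.9). The 29 cells of cattle 2 that fell in the cluster at 120 CPM stood at 106 CPM (42.6 to 218). The intervals cover counting error only.

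In pig the somatic levels were lower and rested on few UMIs. Leydig-like cells stood at 24.2, 18.6 and 25.7 CPM, myoid or stromal-like cells at 27.4, 13.9 and 12.8, macrophage-like cells at 9.42, 11 and 21.2, Sertoli-like cells at 27.7, 7.25 and 5.38, lymphocyte-like cells at 0, 11.2 and 3.30, and endothelial-like cells at 0, 4.45 and 7.84. The zeros, both in pig 1, come from 19 lymphocyte-like and 6 endothelial-like cells and allow up to 149 and 503 CPM, the level of 3 UMIs. Germ-like cells lay above Leydig-like cells in all animals (two-sided exact permutation p = 0.1, the smallest possible without the pairing by animal, which the test ignored). Each further pair of neighbours in the order overlapped.

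No pig somatic type passed the test against the mean of the others in the edgeR fit. The values were 1.05 for macrophage-like (adjusted p = 0.141), 1.0 for Leydig-like (0.175), 0.36 for Sertoli-like (0.636), 0.15 for myoid or stromal-like (0.992), −0.85 for endothelial-like (0.359) and −1.71 for lymphocyte-like cells (0.379). The macrophage-like value passed with the animal as a replicate block, at 1.18 (adjusted p = 0.00985, beside 10.3% of 15143 genes called higher without the block), and without pig 1, at 1.35 (adjusted p = 0.0109). It was 0.03 without pig 3, the 1 of 3 pigs in which macrophage-like cells lay above the mean of the other types, and in whose macrophage-like cells a single cell held 30 UCHL1 UMIs. Leydig-like cells were above the mean of the other types in 3 of 3 pigs. The difference of the Leydig-like effect, pig minus cattle, was 1.76 (SE 0.57) and did not pass (edgeR, adjusted p = 0.0678, beside 1.42% of 12747 symbols called higher).

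Because UCHL1 is abundant in nerves, a list of 11 nerve, Schwann cell or neuroendocrine genes was read in each type, of which 10 are in the pig table. In Leydig-like and lymphocyte-like cattle cells its summed level ran from 32.1 to 84.3 CPM, in myoid or stromal-like cells from 132 to 393 CPM and in Sertoli-like cells from 366 to 633 CPM, and 2 to 7 of the 11 genes had a UMI in a named cattle somatic type of an animal. In pig the list was highest in Sertoli-like cells too, at 735 to 884 CPM. The list holds S100B, a leading gene of a cattle Sertoli-like cluster, and CHGA, a leading gene of a pig Sertoli-like cluster. The Sertoli-like sums include these genes and are thus no measure of nerve RNA alone. Of the defining genes, CDH19 of Schwann cells was at 0 in each named cattle somatic type, and ELAVL4, of neurons, was at 0 in all but the Sertoli-like cells of cattle 3. The part of nerve RNA in the somatic signal was not tested.

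The cattle files also hold droplets with too few UMIs to be cells, and these empty droplets carried UCHL1. Barcodes with 1 to 50 UMIs numbered 102656, 207987 and 283854, and UCHL1 stood at 136, 158 and 163 CPM in them (152 ± 14.2, SD, n = 3), against 56.0, 48.4 and 64.6 CPM in the named somatic cells of the same animals (56.3 ± 8.09). The somatic level was 0.370 of the empty-droplet level, the groups did not overlap, and the two-sided exact permutation test gave p = 0.1, the smallest possible. That test took the groups as independent, although both come from the same animals. The ratio stayed between 0.339 and 0.509 over the alternatives, so somatic cells carried less UCHL1 per UMI than free RNA did under each of them. If the whole of the somatic RNA were free RNA of this makeup, UCHL1 would be at 243%, 326% and 252% of the level seen. This upper bound thus sets no limit on the part of the somatic signal that free RNA can give.

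A smaller share follows from genes that somatic cells should lack. The 9 germ markers were in somatic cells at 25.7%, 8.62% and 14.1% of their level in empty droplets. If all those UMIs were free RNA, free RNA at that share would give 62.3% (95% interval 37.1 to 104), 28.1% (22.0 to 35.8) and 35.5% (27.0 to 47.3) of the somatic UCHL1 UMIs in cattle 1, 2 and 3. The interval of cattle 1 includes the whole signal, and those of cattle 2 and cattle 3 do not. These intervals, and those by cell type below, hold the counting error of the germ markers alone. They take the UCHL1 counts of somatic cells and empty droplets as fixed and are thus narrower than full 95% intervals of the shares. With barcodes of 1 to 10 UMIs as empty droplets the shares were 35.7%, 14.1% and 30.9%. These shares also assume that no germ-marker UMI of a somatic cell came from a doublet or from a germ cell under a wrong name, which was not tested.

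The estimate differed by cell type. It was 79.4%, 72.2% and 83.3% in Leydig-like cells, each with an interval that includes 100%, 55.0%, 33.6% and 24.3% in myoid or stromal-like cells, 39.6%, 23.3% and 51.2% in Sertoli-like cells and 90.8%, 21.3% and 51.0% in lymphocyte-like cells. In cattle 2 and 3 the intervals of the myoid or stromal-like and Sertoli-like cells ended at 71.5% or below. Of these 4 types, Leydig-like cells were thus the one in which the germ-marker share could give all of the UCHL1 signal in each animal. Their estimates rest on only 7, 7 and 14 germ-marker UMIs and 32, 16 and 36 UCHL1 UMIs. The intervals were wide, at 29.9% to 180%, 28.5% to 152% and 43.1% to 150%. In macrophage-like cells the estimate was 363%, 0% and 158%, and in endothelial-like cells 182%, 55.0% and 71.4%, with intervals that also included 100%. These rest on 2, 4 and 19 and on 2, 3 and 6 UCHL1 UMIs, and a share above 100% exceeds the signal seen. UCHL1 UMIs per 100 germ-marker UMIs were 583, 587 and 604 in somatic cells and 363, 165 and 214 in empty droplets. In germ-like cells they were 141, 79.2 and 94.8. The somatic ratio lay above that of empty droplets in 3 of 3 cattle. This restates the shares of all named somatic cells, each under 100%, and is no separate result.

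**Figure D3:**
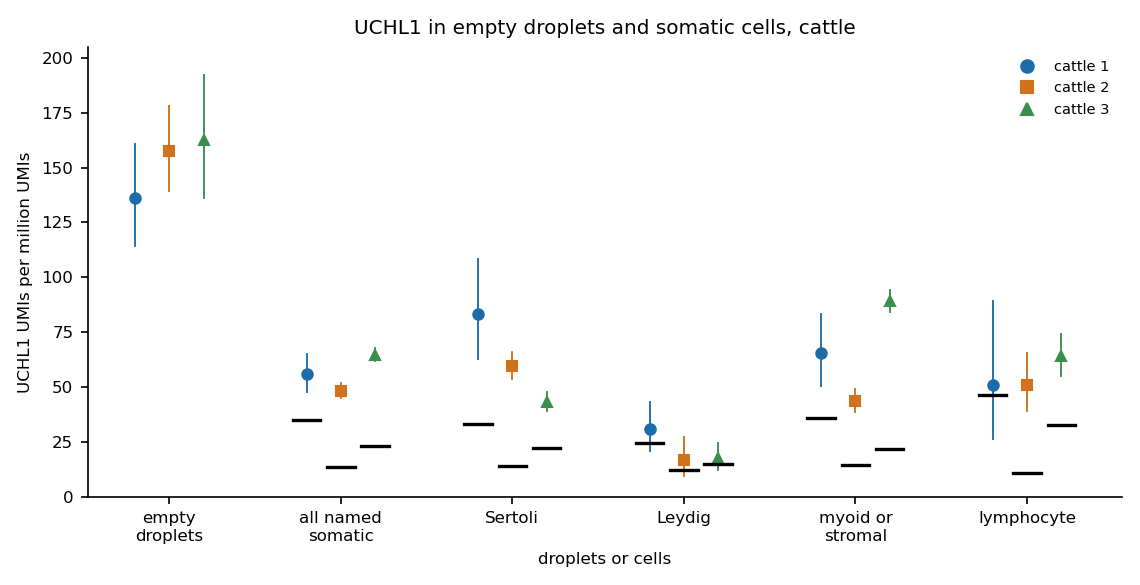
UCHL1 level in CPM in the empty droplets (1 to 50 UMIs) and in somatic cells of the 3 cattle, with 1 point per animal and bars for the Poisson 95% interval, where a black line below a point is the level that free RNA would give at the share set by the germ markers. Empty droplets, at 136 to 163 CPM, lie above each somatic type, and in Leydig-like cells the lines fall within the intervals of the points in all 3 cattle.

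In pig, whose marker list lacks DAZL, somatic cells held 132, 90.3 and 82.5 UCHL1 UMIs per 100 germ-marker UMIs, and germ-like cells 260, 179 and 217. The somatic ratio was thus the lower one in 3 of 3 pigs, where in cattle it was the higher one. In pig 2 this rested on RNF17, with 72 of the 124 somatic germ-marker UMIs, without which the somatic ratio was 215 and the germ-like one 196. The pig files hold no barcode with fewer than 500 UMIs and thus no empty droplets. Barcodes under the minimum set for cells, which can be damaged cells as well as droplets with free RNA, stood at 39.7, 67.7 and 26.6 CPM, above the 25.1, 7.82 and 12.1 CPM of the named somatic cells in each pig.

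Within the pig germ-like cells the UCHL1 level in CPM was lower in the cells with meiotic RNA. Each cell was thinned to 1000 UMIs and sorted by its UMIs of 18 meiotic genes, such as the synaptonemal complex genes SYCP1 to SYCP3 and the recombinase DMC1, of which 16 are in the pig table. Pig cells with 0 such UMIs stood at 652, 599 and 510 CPM of UCHL1, those with 1 at 628, 564 and 330 CPM, and those with 2 or more at 292, 459 and 238 CPM. The level in CPM was lower with each step in each of the 3 pigs. The last class held 126, 29 and 162 cells. The share of these thinned cells with a UCHL1 UMI was 39.4%, 41.8% and 14.3% over the 3 classes in pig 1 and 29.3%, 24.0% and 7.41% in pig 3, but 34.3%, 37.5% and 41.4% in pig 2, where it ran against the CPM. Cattle cells with 0 meiotic UMIs stood at 1639, 888 and 1112 CPM, those with 1 at 1415, 886 and 924 CPM, and those with 2 or more, 11, 71 and 55 cells, at 1642, 876 and 1139 CPM. No such order was seen in cattle, where the first and the last class differed by less than the animals did. The paper names early prophase spermatocytes among the germ cells of the pig tissue only. The cattle germ-like cells formed 1 cluster, at 1044 CPM of the meiotic genes summed, against 5195 CPM in the pig cluster with most of them. The other pig germ-like clusters, at 459 to 883 CPM of the meiotic genes, lay below the cattle one. These sums are over 18 genes in cattle and 16 in pig. Whether the last cattle class held cells in meiosis was not tested, so these values do not show how cattle UCHL1 changes at meiosis.

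In the edgeR fit the difference between the cells with 2 or more and those with 0 meiotic UMIs was −1.04 on the log2 scale in pig (SE 0.25), which did not pass over all genes (adjusted p = 0.0975). In that comparison 0.619% of 13402 genes were called higher and 0% lower. With no filter on low counts it passed, at −1.07 (adjusted p = 0.0144), and with the animal as a replicate block it was −1.06 (adjusted p = 8.26e-16), a p that rests on a spread shared by all genes, since that fit put no gene's own spread beside it. It was −0.73 after thinning to 2000 UMIs and −0.5 with at least 1 meiotic UMI as the class. In cattle the difference was −0.18 (SE 0.31, adjusted p = 1), and no gene of 10530 was called. The meiotic difference, pig minus cattle, was −0.74 (SE 0.42, edgeR, adjusted p = 1), and −0.79 with the block (adjusted p = 0.00279).

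Germ-like cells with UMIs of a list for undifferentiated spermatogonia had the higher UCHL1 level in CPM. The list holds genes such as GFRA1, the receptor of GDNF, and the transcription factors ID4 and ETV5. Pig cells with at least 1 such UMI stood at 818, 623 and 733 CPM and those without at 562, 565 and 377 CPM. Cattle cells with 1 stood at 1696, 951 and 1089 CPM and those without at 1504, 844 and 1029 CPM. The direction in CPM was the same in 6 of 6 animals, and this split was given no test. The Poisson intervals of the classes overlapped in each of the cattle and in pig 2, and lay apart in pig 1 and pig 3. The thinned share with a UCHL1 UMI ran the other way in pig 2, at 34.5% with and 36.3% without such UMIs. This list is not specific to germ cells. Its summed level was 17.6 to 216 CPM in the pig germ-like clusters and 96.5 and 108 CPM in the pig myoid or stromal-like ones. In cattle it was 434 CPM in the germ-like cluster and 34.9 to 86.1 CPM in the myoid or stromal-like ones. With at least 1 UMI of the differentiating list, which holds KIT, the receptor of stem cell factor, pig cells stood at 568, 260 and 123 CPM against 581, 582 and 433 CPM without. In cattle the values were 1190, 816 and 1095 CPM against 1619, 893 and 1048 CPM, so that the class with KIT-list UMIs was lower in 5 of 6 animals. That class held 7, 29 and 18 cattle cells and 21, 6 and 49 pig cells, and its interval included the level of the other class in each of the cattle and in pig 1 (393 to 794 CPM).

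**Figure D4:**
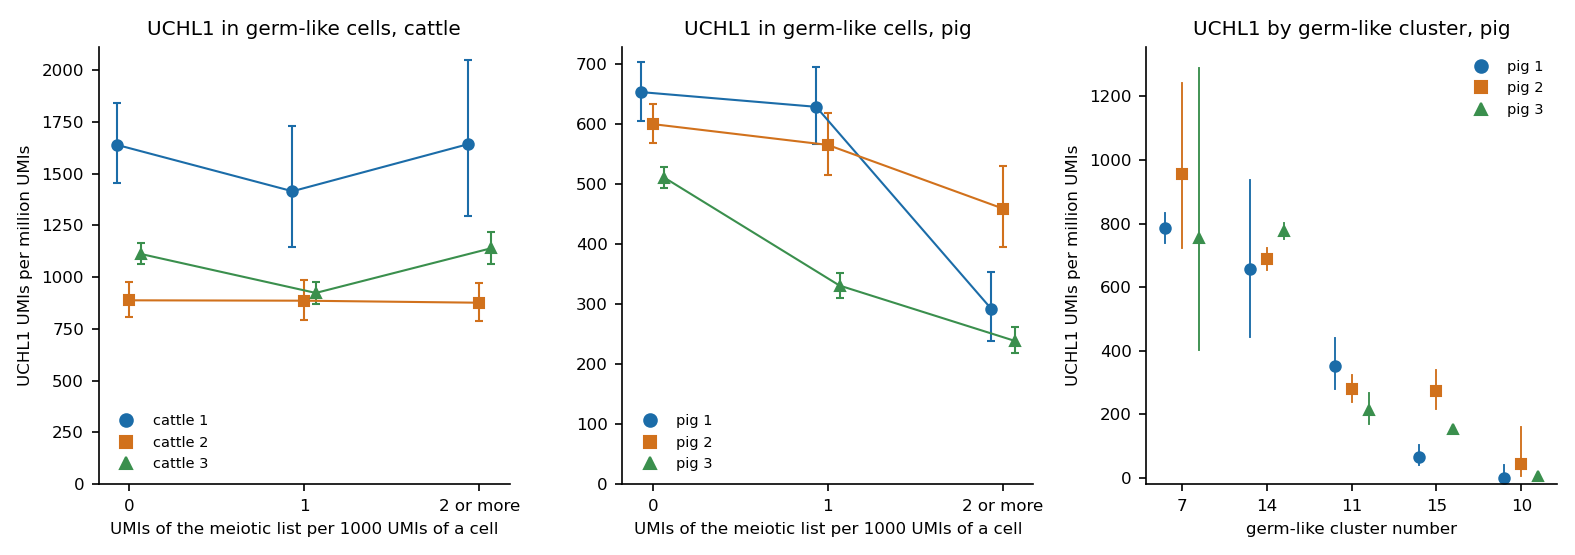
UCHL1 level in CPM of germ-like cells by the number of meiotic UMIs of the cell after thinning to 1000 UMIs, in cattle (left) and pig (middle), and by pig germ-like cluster (right), with 1 point per animal and bars for the Poisson 95% interval. The 3 pig lines run from 510 to 652 CPM at 0 meiotic UMIs down to 238 to 459 CPM at 2 or more, the cattle lines show no common direction, and the pig cluster at the far right has 0, 44.5 and 6.17 CPM.

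The pig germ-like clusters spread over a range of UCHL1 levels. As a description over all pigs, a pair of clusters stood at 791 and 747 CPM of UCHL1 with 518 and 459 CPM of the meiotic genes summed, and another pair at 273 and 155 CPM of UCHL1 with 731 and 883 CPM of the meiotic genes. The last cluster, of 103 cells, held 5 UCHL1 UMIs in all, or 8.01 CPM, with 5195 CPM of the meiotic genes and 1930 CPM of TEX101, a surface protein of germ cells that have entered meiosis. Its UCHL1 level was 0, 44.5 and 6.17 CPM in pig 1, 2 and 3. The order of the clusters by UCHL1 was the reverse of that by meiotic genes except between the first pair. The cluster at 791 CPM came to 96.5% from pig 1 and stood at 785, 956 and 755 CPM in 363, 10 and 3 cells of pig 1, 2 and 3. Within pig 1 the clusters ran from 785 CPM over 656, 353 and 66.6 to 0. Without the TEX101 cluster, a comparison chosen after its level was seen, 223 of 317 pig cells with 2 or more meiotic UMIs were left, at 387, 506 and 308 CPM of UCHL1, lower in CPM than the cells with 0 in each pig.

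The rest of the UCH family differed less between germ-like and other cells. UCHL5, the deubiquitinase bound to the proteasome, was higher in germ-like cells by 1.05 on the log2 scale in cattle (edgeR, adjusted p = 0.0170) and by 0.86 in pig (adjusted p = 0.0281). UCHL3 was higher in pig by 1.21 (adjusted p = 0.0312), while in cattle its value was −0.32 (adjusted p = 0.331) and turned to 0.79 when scaled by library size alone. BAP1, the nuclear member that acts on histone H2A, did not pass in either species (0.55, adjusted p = 0.578, and 0.35, adjusted p = 0.392). Of the 4 family members, UCHL1 included, 2 in cattle and 3 in pig were thus higher and 0 lower, beside 23.1% and 17.2% of all genes called higher, with medians of 0.80 and 1.04 beside −0.17 and −0.08 over all genes tested. The number called higher was 1 without cattle 2, without cattle 3 and without any 1 of the pigs.

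Of the genes that encode ubiquitin itself, those described here were not called higher in germ-like cells in the edgeR fit of either species. UBB, the polyubiquitin gene, had a log2 difference of 0.23 in cattle (edgeR, adjusted p = 0.496) and −0.16 in pig (adjusted p = 0.631), but 1.39 in cattle (adjusted p = 0.00158) when scaled by library size alone, on which scale UCHL1 was at 4.38. The ubiquitin fusion gene RPS27A had a log2 difference of −1.79 in cattle (adjusted p = 0.0006), lower in germ-like cells, and −0.66 (adjusted p = 0.0371) by library size alone. NEDD8 itself was counted with the genes that activate ubiquitin or NEDD8. Of this list, 1 of 5 in cattle and 1 of 4 in pig were higher and 0 lower, near the background shares of 23.1% and 17.2%. The cattle count was 2 higher and 1 lower without cattle 1 and 0 without cattle 2 or cattle 3, and the pig count was 0 without pig 1 or pig 3.

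Among the other deubiquitinases, germ-like cells had 16 called higher and 9 called lower out of 68 tested in cattle, where 23.1% of all genes were called higher and 26.7% lower. The pig had 10 called higher and 9 called lower out of 67, where 17.2% of all genes were called higher and 20.2% lower. The share called higher was near this background in both. The counts of higher and lower were 24 and 15 without cattle 1, 7 and 3 without cattle 2 and 11 and 4 without cattle 3, and 6 and 2, 4 and 1, and 6 and 3 without pig 1, 2 and 3 in turn. The median of the list was 0.32 in cattle and −0.11 in pig. The X-linked USP26, known from testis, was higher in both species, by 6.31 and 4.15 on the log2 scale (edgeR, adjusted p = 0.000112 and 0.00197). In cattle 1, 2 and 3 it stood at 6.82, 19.8 and 20.4 CPM in germ-like cells and at 0.328, 0.065 and 0.068 CPM in other cells. Such low levels leave the size of the cattle difference uncertain. USP2 was also higher in both, by 3.08 and 3.01 (edgeR, adjusted p = 0.00127 and 0.000542). The others named by the smallest adjusted p were STAMBPL1, USP3 and USP36 among the higher in cattle, at 2.38, 2.14 and 2.09, and PSMD14, the deubiquitinase of the proteasome lid, and USP44 among the higher in pig, at 1.61 and 2.41. Lower in cattle were USP53, JOSD2, MINDY1 and COPS5, at −2.99, −2.85, −2.45 and −1.26, and lower in pig were MINDY2, MINDY1, USP36 and USP9X, at −2.48, −2.32, −1.21 and −1.18. USP36 was thus higher in cattle and lower in pig. COPS5 did not pass by library size alone, at −0.14 (adjusted p = 0.659).

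Proteasome genes were more often lower than higher in cattle germ-like cells, 17 against 2 of 35 tested, with a median of −0.74, beside 26.7% of all genes called lower and 23.1% higher. In pig 2 were lower and 2 higher of 28, with a median of 0.10, beside 20.2% and 17.2% of all genes. The cattle counts were 18 lower and 4 higher without cattle 1, 10 and 0 without cattle 2 and 13 and 1 without cattle 3, and without any 1 of the pigs those of pig were 2 lower and 0 higher. The genes with the smallest adjusted p among the lower were those of the immunoproteasome, the form with exchanged catalytic subunits that immune cells make. PSMB8 had log2 differences of −4.23 in cattle and −4.64 in pig (edgeR, adjusted p = 2.83e-05 and 0.00296), PSMB10 one of −4.05 in cattle (adjusted p = 5.1e-05) and PSMB9 one of −3.41 in pig (adjusted p = 0.00797). Among the higher were PSMD6 and PSMC5 in cattle, at 1.07 and 0.94, and PSMD1 and PSMD11 in pig, at 0.99 and 0.92. Scaling by library size alone moved the median of all genes from −0.17 to 0.94 in cattle and from −0.08 to 0.26 in pig, and the counts moved with it. Then 15 proteasome genes were higher and 6 lower in cattle, with a median of 0.44 that still lay under that of all genes, and 35 deubiquitinases were higher and 3 lower. In pig 7 proteasome genes were higher and 2 lower, and 15 deubiquitinases were higher and 3 lower. The share of all genes called by library size alone is not given here, so these counts have no background beside them.

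**Figure D5:**
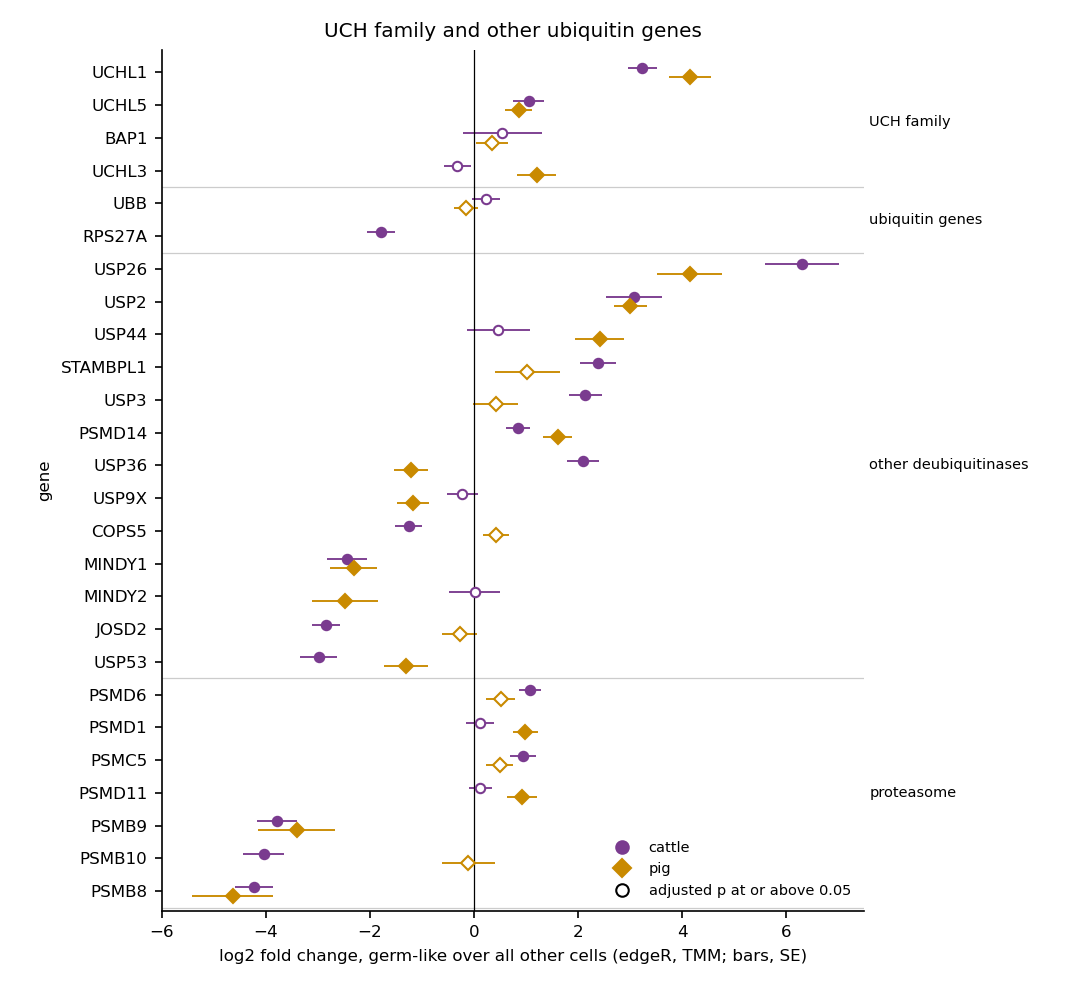
Difference between germ-like and all other cells as log2 fold change from edgeR, with bars for the SE, for genes of the ubiquitin system named in the text and shown for both species where tested, cattle as circles and pig as diamonds, filled where the adjusted p was under 0.05. UCHL1, at 3.24 and 4.16, lies to the right of the other members of its family in both species, and PSMB8 lies farthest to the left of the named proteasome genes.

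The genes whose pattern over animals and named cell types was most like that of UCHL1 differed between the species. Over 21 cattle sums, the largest Pearson correlations of log2(CPM + 10) with UCHL1 were those of OSER1 (0.969), the chaperonin subunit CCT5 (0.956), the co-chaperone STIP1 (0.951), the heat shock factor HSF1 (0.951) and PARP1, which acts in DNA repair (0.948). Over 19 pig sums they were GSC (0.972), CCNO (0.970), KLK4 (0.970), RXRG (0.970) and CTXN1 (0.965). No symbol was among the 50 most like in both species. These values are a description, since the sums of an animal share a library and the germ-like sums set most of the range.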

How the data were processed

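Single-cell RNA-sequencing libraries of 3 cattle and 3 pig testes were used, 1 per animal. In both species 2 libraries bear an equal testis number in the labels but differ in the animal tag, and they were taken as separate animals because the study's methods name 3 per species. Mouse data were not analysed here. The authors deposited raw UMI count values per gene and barcode, made with Cell Ranger 2.1.0 per the submitters' processing notes (3.0.2 in the header of the pig files) on ARS-UCD1.2 and Sscrofa11.1, and the strand setting is not given in the sources used here. The cattle files hold every barcode and the pig files those with at least 500 UMIs.

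Cells were called per library at 10% of the 99th percentile of the 3000 deepest barcodes, which gave minimums of 459 to 3457 UMIs, with at least 200 genes. Scrublet (scanpy 1.11.5) scored doublets, and the highest 0.8% per 1000 cells were left out, 41 to 613 cells per library. Clustering used 2000 variable genes, 30 principal components, 15 neighbours and Leiden resolution 1. A name needed 3 markers, each with a UMI in at least 5% of the cluster's cells and at least 2 times the level of the median cluster after adding 10 CPM. A rule that left clusters unnamed when genes of another cell type were among their 10 leading genes was set after the clusters had been seen. Neither step used UCHL1, the lists of the ubiquitin system, stage genes or mitochondrial genes.

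Counts were summed per animal and cell type and tested with edgeR 4.0.16 in R 4.3.3 (quasi-likelihood, TMM, genes with at least 10 counts, Benjamini-Hochberg at 0.05), with sums of at least 20 cells in the fit of types. Other settings were library size alone, DESeq2 1.42.0, no filter, the animal as a replicate block, each animal left out, and other cells, doublets, resolution or naming. Leaving out unnamed cells, the pig cluster with TEX101 or each germ marker in turn, the other cells and namings for the germ-like difference between the species, and the tests of meiotic and somatic differences between the species, were added after the data had been seen. The sums of an animal come from 1 library and are paired. Their deviations from the group means correlated at 0.437 to 0.559 in cattle and 0.315 to 0.498 in pig, against at most 0.247 between animals. Scripts were tested on simulated data. Intervals are exact at 95% and cover counting error only, and a level of 0 was given the limit of 3 UMIs. Those of the free RNA shares cover the counting error of the germ markers alone and not that of UCHL1.

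UCHL1 and all lists were chosen with earlier results of these data known. Named were the UCH family, ubiquitin genes, the 4 other deubiquitinases and 2 proteasome genes of the smallest adjusted p per direction and species, and the 5 genes per species most like UCHL1. P-values without a block measure the spread between these animals and take the sums of an animal as independent. Those with the animal as a replicate block measure the spread left after the animals' own levels are taken out. Some members of the lists are not reported here.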

Additional observations from a re-analysis of the deposited data

Results flagged for a closer look

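UCHL1 in Leydig-like cells, relative to the mean of the other somatic types, lay below in each of the 3 cattle (30.7, 16.7 and 17.7 CPM against 71.0, 38.7 and 49.8) and above in each of the 3 pigs (24.2, 18.6 and 25.7 CPM against 12.9, 9.56 and 10.1). The difference between the species, 1.76 on the log2 scale, was tested after this opposite direction had been seen and did not pass (edgeR, adjusted p = 0.0678). It passed by library size alone (2.31, adjusted p = 0.00649), with DESeq2 (1.94, adjusted p = 0.0230), with the animal as a replicate block (1.56, adjusted p = 0.0234) and without cattle 1 (2.14, adjusted p = 0.0341), and it ran from 1.5 to 2.31 over 10 alternatives. The pig values rest on 34 UCHL1 UMIs, and the cattle values on 84.

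A pig cluster of 307 cells that was left without a name and entered no comparison of cell types, 293 of them from pig 2, stood at 419 CPM of UCHL1, above the named somatic cells of pig. It held 114 CPM of the germ markers summed and 400 CPM of the stromal gene DCN, so that genes of both kinds were present. The pig germ-like clusters held 155 to 556 CPM of the germ markers and 39.9 to 142 CPM of DCN. The pig myoid or stromal-like clusters held 17.7 and 25.6 CPM of the germ markers and 3436 and 4375 CPM of DCN. The cluster was left without a name because it shared at least 3 leading genes with a germ-like cluster. With unnamed cells left out, the difference between germ-like and other pig cells was 4.83 in place of 4.16.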

How the results depend on the processing

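Of 161 results and alternatives that answer a comparison, each animal left out in turn aside, 123 kept their direction and their side of the threshold, or stayed within 1.5 times for a count. The germ-like difference in pig was 1.62 with markers compared with all other cells and 1.77 by UMIs of 2 germ markers, and the pig minus cattle difference turned to −1.49 and −1.17, neither passing. In the fit with a replicate block for the animal, cattle Leydig-like and macrophage-like values (−0.79, −0.98), the pig macrophage-like value (1.18), the pig meiotic difference (−1.06) and the pig minus cattle values of the germ-like (1.24) and meiotic difference (−0.79) passed. Under the block 36 list genes were higher in cattle and 17 lower in pig, in place of 21 and 11, and no other call on UCHL1 in a single species changed. By library size alone the cattle Leydig-like value passed (−1.04) and the lymphocyte-like one did not (0.62), and 58 list genes were higher and 10 lower in cattle, and 26 and 5 in pig. Shares of all genes called are given for the main fits only. Counts of list genes under other settings, or without an animal, thus have no background beside them.

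With DESeq2 the cattle myoid or stromal-like and Sertoli-like values, both 0.69, did not pass, nor at a minimum of 500 UMIs (0.60, 0.64) or with doublets kept (0.62, 0.59), when the Leydig-like value passed (−0.87). With markers compared with all other cells the cattle Sertoli-like value was 0.36, and the pig Leydig-like and macrophage-like values passed (1.29, 1.28). With no filter the pig meiotic difference passed (−1.07), and with unnamed cells left out the pig minus cattle difference did (1.84). Uncalled pig values turned sign, for lymphocyte-like cells with doublets kept (0.56) and resolution 2 (0.50), for myoid or stromal-like cells at 500 UMIs, with doublets kept and at resolution 2 (−0.44, −0.33, −0.28), and for Sertoli-like cells with doublets kept, at resolution 2 and under the other naming (−0.12, −0.14, −0.90). The endothelial-like difference, pig minus cattle, turned to −0.55 by library size alone, −0.29 with DESeq2 and, without each animal in turn, ran from −0.26 (without pig 3) to 0.58. The cause of these moves was not tested.

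Without each animal in turn, cattle values ran from 3.05 to 3.44 for germ-like, 0.73 to 1.24 for lymphocyte-like, 0.49 to 1.01 for myoid or stromal-like, 0.65 to 1.16 for Sertoli-like, −1.08 to −0.46 for Leydig-like, −1.2 to −0.85 for macrophage-like and −1.13 to −0.71 for endothelial-like cells. Pig values ran from 3.98 to 4.54 for germ-like, 1.06 to 1.2 for Leydig-like, 0.027 to 1.35 for macrophage-like, 0.15 to 0.28 for myoid or stromal-like and −0.68 to 0.66 for Sertoli-like cells. The meiotic difference ran from −1.28 to −0.86 in pig and −0.20 to −0.06 in cattle. List genes higher ran from 8 to 32 in cattle and 6 to 7 in pig, and lower from 15 to 36 and 3 to 5. With a sum left alone in a group, its spread was taken from the others. Depth limits the pig somatic types, whose sums held 0 to 21 UCHL1 UMIs in endothelial-like and lymphocyte-like cells.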
